A study of Mus musculus with 61 samples.

Results

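Galanin and 7 other neuropeptide genes were followed across the reprogramming of mouse pancreatic duct cells towards endocrine fates. They were Gal, Npy, Pomc, Penk, Pdyn, Adcyap1, Nmb and Ucn3, 8 of the 46078 genes in the table of counts. These 8 were picked because of their levels across the 12 conditions of the experiment, so those levels are given as a description, without a test.

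Neuropeptides are short signalling peptides that are cut from larger precursor proteins in the secretory pathway, stored in dense-core granules and released to act on G-protein-coupled receptors. Neurons use them as modulators, and endocrine cells of the pancreas and gut make several of the same peptides. In the islet, galanin is best known as an inhibitor of insulin release, carried there by nerve endings, and urocortin 3 is a product of mature β-cells in the mouse.

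The cells came from ductal organoids of C57BL/6 mice. Cultures were infected with separate doxycycline-inducible lentiviral vectors, in which Ngn3 was linked to GFP, Pdx1 to LSS-Orange and MafA to tdTomato, together with a vector for the Tet transactivator. Ngn3 was either wild-type (WT cultures) or a phospho-mutant in which 6 serines were changed to alanine (6SA cultures). After 8 days of doxycycline, pools of 50 cells of each colour were sorted and sequenced. Each kind of culture gave 6 conditions, which were Pdx1 or MafA singly, both together, Ngn3 beside either of them, and all 3 factors. The cells without Ngn3 therefore came from infected cultures and carried at least 1 of the other factors, and uninfected cells and cells with Ngn3 alone were not analysed here. Replicates 1 and 2 used passage 2 organoids and replicate 3 used passage 5 organoids, so passage and replicate number cannot be told apart. The 58 libraries with over 1000000 gene counts made up 32 samples once the 1 to 3 pools of a culture were summed, with 2579583 to 19461008 counts each, 17 of them with Ngn3 and 15 without. The 3 libraries left out all came from cells with 3 factors, and nothing in the labels says how far replicate numbers stand for separate animals. Levels are CPM (gene counts scaled to a library of 1000000 counts) after TMM scaling, and 3 counts, the limit that a count of 0 allows, correspond to 0.136 to 1.01 CPM depending on the sample.

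The labels were checked against the factors themselves, although reads of the vector and of the cell's own gene cannot be separated. Neurog3, which encodes Ngn3, was at 7.87 to 329 CPM in the cells labelled with it and at 0 to 0.788 CPM in the others. Mafa was at 0 to 12.7 CPM in the cells labelled with it, with 1 sample at 0, and at 0 to 0.116 CPM in the others. The ranges of Pdx1 overlapped, at 9.84 to 191 CPM with the label and 3.21 to 30.6 CPM without. Summed over 8 duct markers the level was 1845 to 3477 CPM in the cells with 3 factors and 12507 to 58823 CPM in those without Ngn3. Summed over 10 endocrine markers it was 1019 to 8710 CPM and 1.29 to 8.13 CPM. In a pool of cells, fewer cells of a type and less RNA per cell cannot be told apart.

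The 8 genes lie on 8 different chromosomes. Gal is on chromosome 19 of GRCm38 (3409915 to 3414544, minus strand, 6 exon blocks) and Pomc on chromosome 12 (3954951 to 3960642, plus strand, 5 exon blocks). The 250 bases upstream of a RefSeq start site are shown for these genes because these were the 2 of the 8 whose levels with Ngn3 did not overlap those without it, both when MafA and when Pdx1 and MafA were present. They are from GRCm38.p6, at chr19:3414545-3414794 on the minus strand for Gal and chr12:3954695-3954944 on the plus strand for Pomc. Capitals mark matches on either strand to the E-boxes CAGCTG and CAGATG, the homeodomain core TAAT, the Maf core TGCTGA and the cyclic AMP response core TGACG, and on the strand of the gene to the TATA box TATAAA.
Gal: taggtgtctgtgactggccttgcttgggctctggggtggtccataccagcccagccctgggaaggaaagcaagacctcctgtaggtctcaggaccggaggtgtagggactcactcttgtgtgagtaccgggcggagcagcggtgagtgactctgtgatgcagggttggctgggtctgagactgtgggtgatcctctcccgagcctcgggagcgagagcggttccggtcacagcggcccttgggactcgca
Pomc: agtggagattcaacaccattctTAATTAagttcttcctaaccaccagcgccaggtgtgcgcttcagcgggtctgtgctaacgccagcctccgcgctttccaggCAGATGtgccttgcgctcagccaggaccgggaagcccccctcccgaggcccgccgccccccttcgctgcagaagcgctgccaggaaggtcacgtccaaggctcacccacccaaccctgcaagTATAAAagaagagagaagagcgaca
The Gal window held none of these 6 motifs. The Pomc window held CAGATG, an E-box of the kind that proneural factors bind, starting 147 bases before the start site, TATAAA 25 bases before it, and a pair of overlapping TAAT cores, the core that homeodomain proteins such as Pdx1 bind. Of 32851 such windows over all genes, CAGCTG was in 13% and CAGATG in 14.4%, the homeodomain core in 54.9%, the Maf core in 16.1%, the cyclic AMP response core in 17.8% and the TATA box in 7.59%. Windows were found for 7 of the 8 genes, and those of Nmb and Npy held none of the motifs either. These matches describe letters in the windows and are not measurements of binding.

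Galanin had by far the highest level of the 8 genes, and its level differed with each of the 3 factors. In WT cells with all 3 factors, Gal was at 8922 and 13409 CPM at passage 2 and at 42.5 CPM at passage 5 (7458 ± 6802 CPM, SD, n = 3). In 6SA cells with the same factors it was at 10710 and 1807 CPM, both at passage 2 (6259 ± 6295 CPM, SD, n = 2). The passage 5 sample stood apart below the other 4. In passage 2 samples of the 3 factors Gal took 0.214% to 1.52% of all gene counts and ranked 3rd or 4th of 45143 genes by CPM per kilobase of exon.

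**Figure D1:**
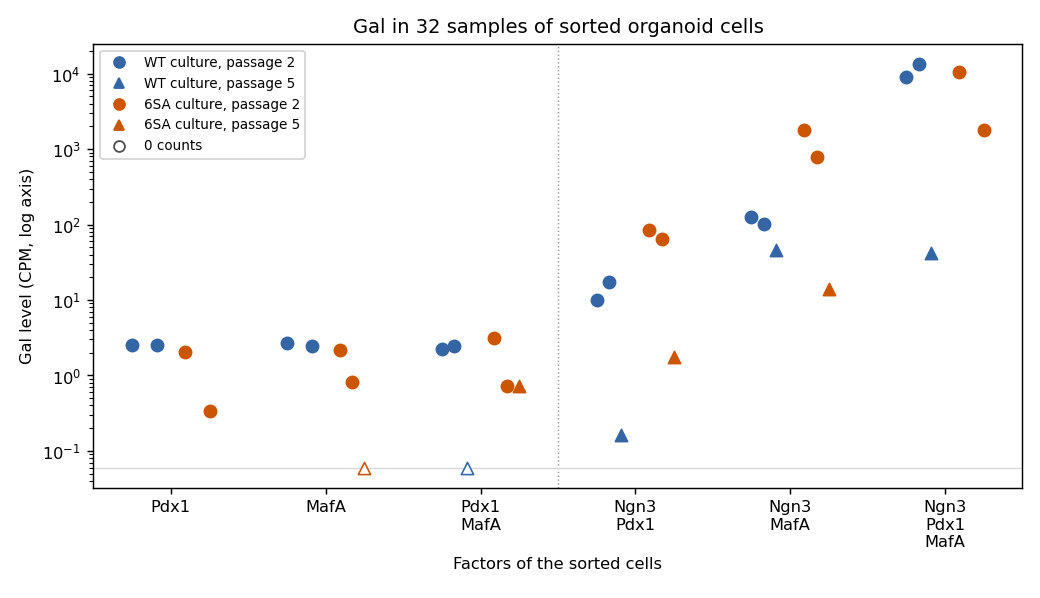
Gal level in CPM on a log axis in the 32 samples, by the factors of the sorted cells, with WT cultures in blue and 6SA cultures in orange, passage 2 as circles and passage 5 as triangles, and samples at 0 counts drawn open on the grey line. The 15 samples to the left of the dotted line, without Ngn3, lie at 0 to 3.12 CPM, and the 4 passage 2 samples with 3 factors lie at 1807 to 13409 CPM.

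With only MafA beside Ngn3, Gal was at 125, 101 and 45.7 CPM in WT cells (90.5 ± 40.7 CPM, SD, n = 3) and at 1791, 792 and 13.9 CPM in 6SA cells (866 ± 891 CPM, SD, n = 3), where the third value in each case is passage 5. With only Pdx1 beside Ngn3, it was at 9.91, 17.5 and 0.164 CPM in WT cells (9.20 ± 8.71 CPM, SD, n = 3) and at 83.7, 64.9 and 1.75 CPM in 6SA cells (50.1 ± 42.9 CPM, SD, n = 3). The passage 5 sample was the lowest of its condition each time. In the 15 samples without Ngn3, Gal was at 0 to 3.12 CPM with a median of 2.19 CPM, from 0 to 53 counts.

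The order of the levels at passage 2 was therefore 3 factors, Ngn3 with MafA, Ngn3 with Pdx1, and cells without Ngn3. Neighbours in this order did not overlap at passage 2 in either kind of culture. The highest 6SA sample with Ngn3 and MafA, at 1791 CPM, lay just under the lower 6SA sample with 3 factors, at 1807 CPM. At passage 5 the first step was reversed in WT cells, at 42.5 CPM with 3 factors and 45.7 CPM with Ngn3 and MafA. WT and 6SA cells with 3 factors overlapped. The 6 conditions without Ngn3 had means of 1.00 to 2.57 CPM and did not all overlap. WT cells with Pdx1 or MafA alone, at 2.47 to 2.68 CPM, lay above 6SA cells with either alone, at 0 to 2.19 CPM. With Ngn3 and a single further factor, the passage 2 samples of 6SA cells were above those of WT cells. They were at 64.9 and 83.7 against 9.91 and 17.5 CPM with Pdx1 and at 792 and 1791 against 101 and 125 CPM with MafA. At passage 5 the 6SA sample was above the WT sample with Pdx1, at 1.75 against 0.164 CPM. With MafA it was below, at 13.9 against 45.7 CPM.

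Averaged over both cultures, Gal was at 6978 ± 5786 CPM with the 3 factors (SD, n = 5) and at 1.54 ± 1.22 CPM with Pdx1 and MafA but no Ngn3 (SD, n = 6). The ratio of these means was 4542, and the log2 fold change fitted with edgeR was 12.06 (SE 1.5). Without MafA the level was 29.7 ± 35.6 CPM (SD, n = 6), a ratio of 235 and a fitted log2 fold change of 8.33 (SE 1.3). Without Pdx1 it was 478 ± 706 CPM (SD, n = 6), a ratio of 14.6 and a fitted log2 fold change of 4.61 (SE 1.1). The groups with and without Ngn3 did not overlap, whereas the WT passage 5 sample brought an overlap to the other comparisons. These comparisons share the samples with 3 factors.

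The remaining 7 genes were at much lower levels. By CPM per kilobase of exon, the scale on which genes can be compared, the medians over the 5 samples with 3 factors were 11323 for Gal, 15.0 for Nmb, 5.33 for Pomc and 0.814 for Penk, and 0 for Npy, Ucn3, Pdyn and Adcyap1. Detection fell off in a similar way. Gal had counts in 56 of the 58 libraries, Pomc in 53 and Nmb in 52, but Penk in 18, Npy in 11, Ucn3 in 5, Adcyap1 in 3 and Pdyn in 2.

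**Figure D2:**
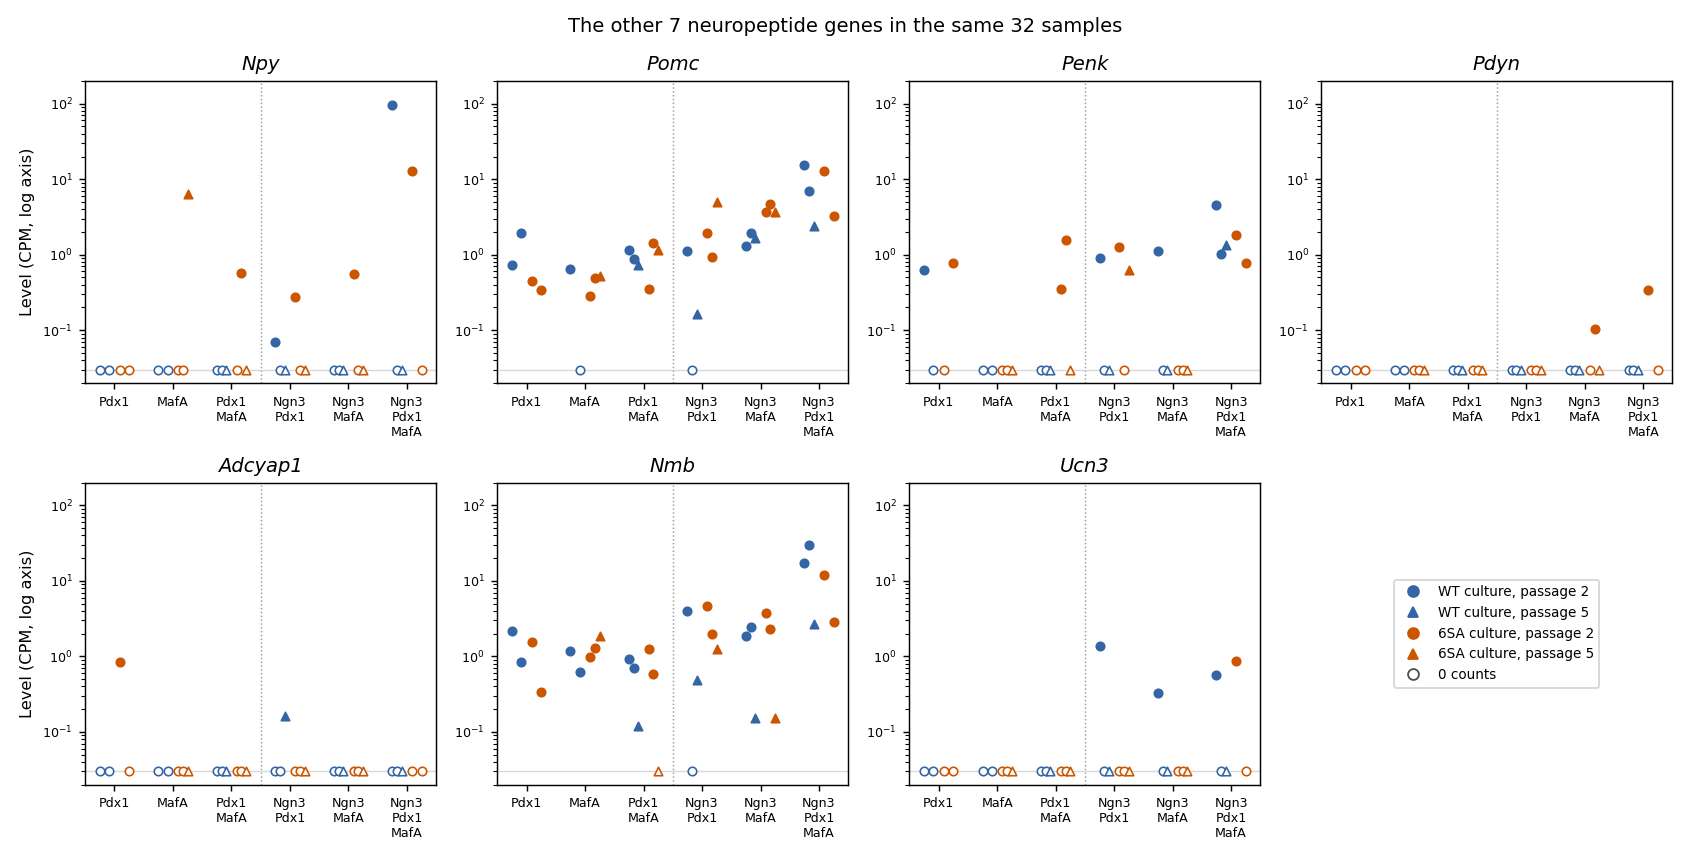
Level in CPM, on log axes of the same range, of the other 7 genes in the same 32 samples, with colours and symbols as for Gal and samples at 0 counts drawn open on the grey line. Pomc and Nmb are above the cells with Pdx1 and MafA in all 5 samples with 3 factors, Npy is high in 2 samples, and Pdyn and Adcyap1 are at 0 in 30 samples each.

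Among the precursors of opioid and melanocortin peptides, Pomc gave the clearest pattern. It encodes the precursor of ACTH, the melanocortins and β-endorphin. With 3 factors Pomc was at 15.6, 7.02 and 2.39 CPM in WT cells and at 12.7 and 3.21 CPM in 6SA cells, from 18 to 193 counts. With Pdx1 and MafA alone it was at 0.353 to 1.45 CPM with 5 to 15 counts in 6 samples, none of which reached the cells with 3 factors. The mean was 8.19 ± 5.82 CPM (SD, n = 5) against 0.947 ± 0.384 CPM (SD, n = 6), a fitted log2 fold change of 3.10 (SE 0.76).

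With Ngn3 and MafA, Pomc was at 1.29 to 1.96 CPM in the 3 WT samples and at 3.67 to 4.67 CPM in the 3 6SA samples, all above the 5 samples with MafA alone, the highest of which was at 0.643 CPM. With Ngn3 and Pdx1 the WT samples were at 1.11, 0 and 0.164 CPM and the 6SA samples at 1.95, 0.930 and 4.93 CPM, and these overlapped the cells with Pdx1 alone. The 6SA sample at 4.93 CPM was passage 5, so Pomc did not share the low passage 5 values of Gal.

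Penk, the enkephalin precursor, was at 4.62, 1.02 and 1.33 CPM in WT cells and 1.83 and 0.781 CPM in 6SA cells with 3 factors, from 7 to 57 counts. The cells with 3 factors were the only class in which all samples had Penk counts. Elsewhere Penk was found in 3 of 6 samples with Ngn3 and Pdx1, 1 of 6 with Ngn3 and MafA and 4 of 15 without Ngn3, up to 1.59 CPM in 6SA cells with Pdx1 and MafA, so the groups overlapped. Exons of Penk overlap A830012C17Rik on the opposite strand, and the library kit does not mark strand, so its reads cannot be told from those of that gene. Pdyn, the dynorphin precursor, had 5 counts in 1 sample of 6SA cells with 3 factors and 1 count in a sample of 6SA cells with Ngn3 and MafA. At this depth no difference in Pdyn was detectable.

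Nmb encodes neuromedin B, a peptide of the bombesin family. With 3 factors it was at 17.4, 30.0 and 2.66 CPM in WT cells and at 11.9 and 2.87 CPM in 6SA cells, from 20 to 215 counts. With Pdx1 and MafA it was at 0 to 1.24 CPM in 6 samples, so these groups did not overlap either. The means were 13 ± 11.4 CPM (SD, n = 5) and 0.592 ± 0.470 CPM (SD, n = 6), a fitted log2 fold change of 4.16 (SE 0.99). With Ngn3 and only Pdx1 or only MafA, Nmb was at 0 to 4.62 and 0.151 to 3.79 CPM, and both ranges overlapped those of Pdx1 alone and MafA alone. Exons of Nmb overlap those of Sec11a on the same strand, which leaves its count uncertain.

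Npy, the precursor of neuropeptide Y, was at 96.2 CPM in a single WT sample with 3 factors (1188 counts) and at 13 CPM in a single 6SA sample with 3 factors (191 counts), both replicate 1. It was at 0 in the other 3 samples with 3 factors. In the cells with fewer factors it was at 0 in most samples, with at most 6.33 CPM (24 counts) in 6SA cells with MafA alone. Without replicate 1 the fitted log2 fold change for Ngn3 added to Pdx1 and MafA was -2.0, so the Npy level rested on these samples.

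The last 2 genes encode ligands of class B receptors. Ucn3, which encodes urocortin 3, had counts in 4 samples, all with Ngn3 and all replicate 1. These were 1.39 CPM in WT cells with Ngn3 and Pdx1 (20 counts), 0.323 CPM in WT cells with Ngn3 and MafA, and 0.567 and 0.882 CPM in WT and 6SA cells with 3 factors. It was at 0 in the 15 samples without Ngn3, where 3 counts would have been at most 0.925 CPM. Adcyap1, which encodes PACAP, had 15 counts in 6SA cells with Pdx1 alone and 1 count in WT cells with Ngn3 and Pdx1, and none in the samples with 3 factors.

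Of the 8 genes, 6 passed the filter on low counts, and Pdyn and Adcyap1 did not. When Ngn3 was added to Pdx1 and MafA, 3 of these 6 (Gal, Pomc and Nmb) had every sample with Ngn3 above every sample without, against 5.66% of the 24004 genes tested. When Ngn3 was added to MafA the count was 2 of 6 (2.14% of all genes), and when it was added to Pdx1 it was 0 (2.08%). When MafA or Pdx1 was the added factor it was 0 of 6 (0.467% and 1.09%). As the genes were picked on these levels, no more is read from the counts.

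Pools of 50 cells from the same culture differed widely. Their CPM are scaled per library, so they can differ slightly from those of a sample. In 12 samples of 2 or 3 pools, with at least 10 Gal counts in all and over 3 in each pool, the highest pool had 1.04 to 11.1 times the Gal level of the lowest, with a median of 3.39. In replicate 1 of the 6SA cells with 3 factors the 3 pools were at 2363, 16299 and 24286 CPM, and in the same replicate of the WT cells at 6486, 15195 and 7116 CPM. The pools of a culture are not replicates. Of the pools from the other conditions with Ngn3, the highest was one of 6SA cells with Ngn3 and MafA, at 3145 CPM, which was above the lowest of these 6.

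The highest 6SA pool for Gal was also the highest of its sample for Pomc, at 52.1 CPM, and for Nmb, at 50.4 CPM. In the WT sample another pool was highest for Pomc, at 46.5 CPM, and for Nmb, at 37.1 CPM. Npy was almost confined to single pools. Of its 1423 counts in the 58 libraries, 1184 (83.2%) came from 1 pool of WT cells with 3 factors, and the other 2 pools of that culture had 2 counts each. In the 6SA sample, 187 of 191 counts came from 1 pool, which was the lowest of the 3 for Gal.

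**Figure D3:**
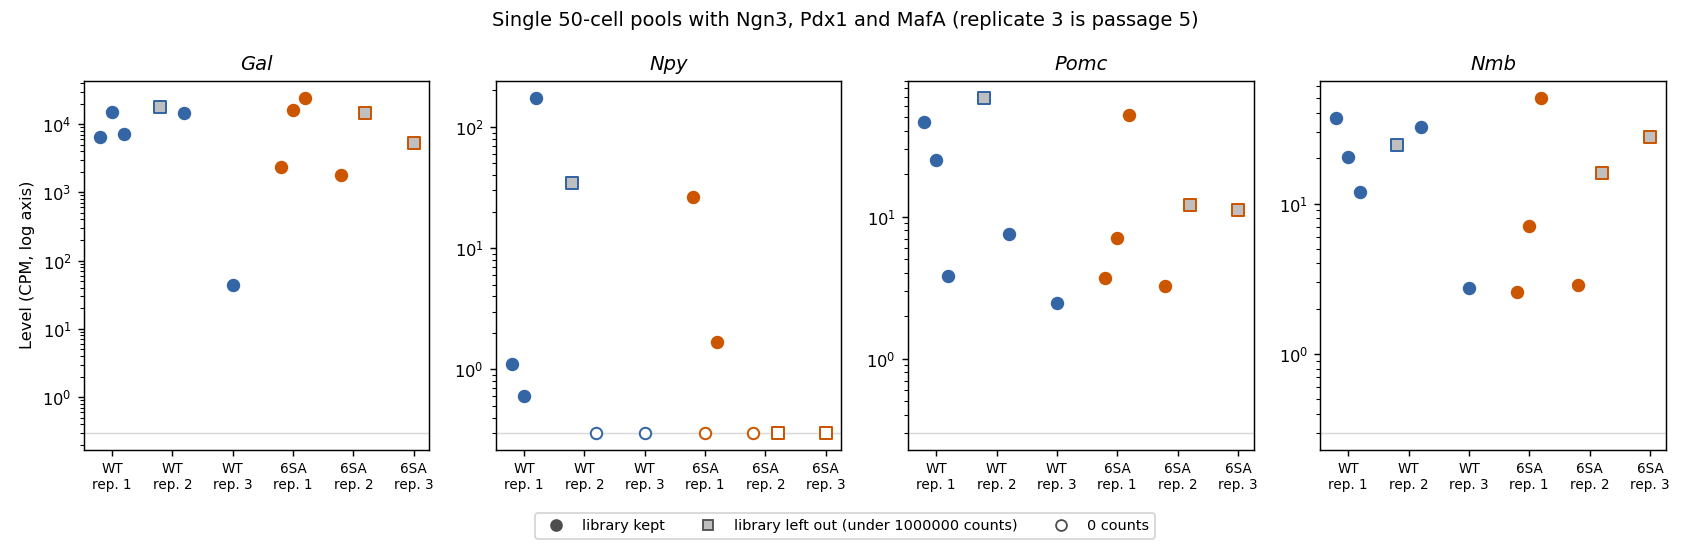
Level of Gal, Npy, Pomc and Nmb in CPM on log axes in each pool of 50 cells with Ngn3, Pdx1 and MafA, by culture and replicate, with kept libraries as circles, the 3 libraries left out as squares and pools at 0 counts drawn open. Gal is at 1810 to 24286 CPM in the kept passage 2 pools and at 44.0 CPM in the WT passage 5 pool, and Npy is above 10 CPM in 2 kept pools and 1 that was left out.

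Passage was not used to pick the genes, although their levels in the same samples were. The difference between passages was tested in the 17 samples with Ngn3, with condition in the model. Samples of a kind of culture with the same replicate number can be colours sorted from the same culture. The model treats them as independent, so the p-values for passage, here and below, may be too small. Gal fell by 5.06 on the log2 scale at passage 5 (SE 0.84, adjusted p = 0.000779, edgeR quasi-likelihood test with Benjamini-Hochberg adjustment over 24004 genes). It was at 0.164 to 45.7 CPM in the 5 passage 5 samples, with a median of 13.9 CPM, and at 9.91 to 13409 CPM in the 12 passage 2 samples, with a median of 459 CPM. In each of the 5 conditions with both passages, the passage 5 sample was below every passage 2 sample. Nmb fell by 2.70 (SE 0.77, adjusted p = 0.0364, edgeR), from a median of 3.33 CPM to 0.492 CPM, and was below all passage 2 samples in 4 of 5 conditions.

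The other 4 genes tested did not pass the threshold in edgeR. Pomc had a log2 fold change of -0.21 (SE 0.73, adjusted p = 0.898) and Penk of -1.61 (SE 1.40, adjusted p = 0.535). Npy and Ucn3 were at 0 in all 5 passage 5 samples (adjusted p = 0.107 and 0.305 in edgeR). DESeq2 called 3 of the 6, with Npy as the third beside Gal and Nmb. Thus 2 of 6 were lower at passage 5, against 4.22% of all genes (5.97% in either direction). The median log2 fold change of the 6 was -3.36, or -2.16 with the genes at 0 set to their bound, and that of all genes was -0.215. The 6 were picked on levels that included these samples. With Ngn3, Npy and Ucn3 had counts only in replicate 1, at passage 2, so a fall at passage 5 was built in for them. The median and the share called are therefore given as a description.

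**Figure D4:**
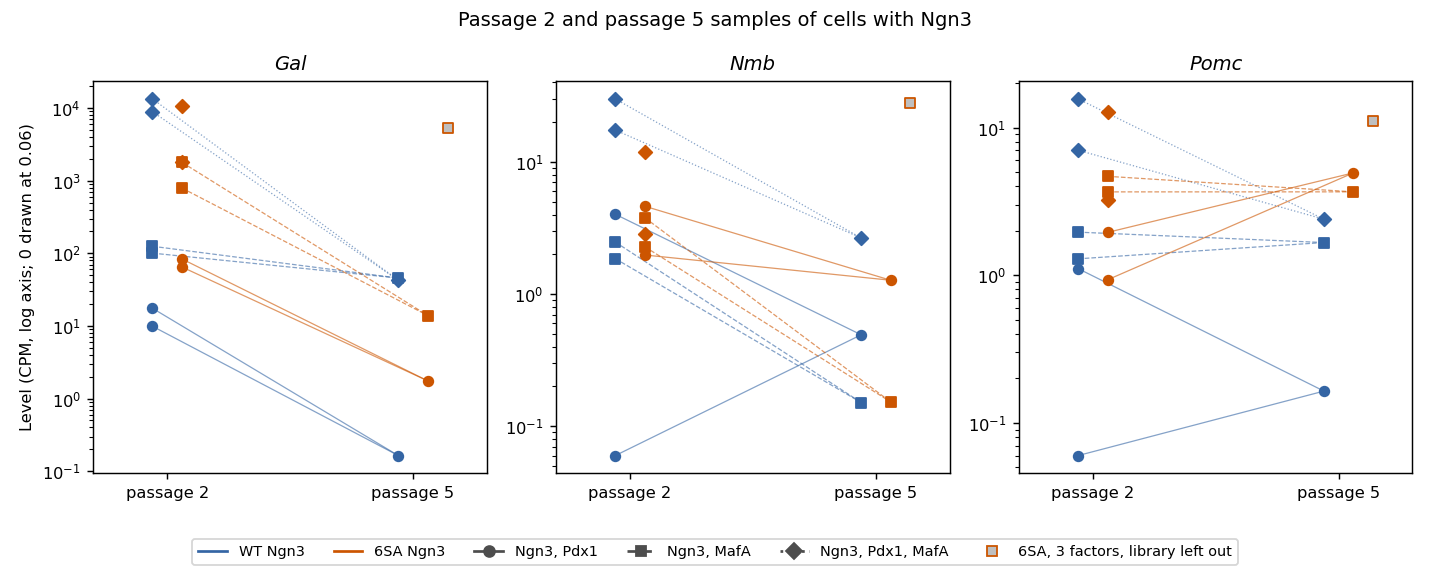
Level of Gal, Nmb and Pomc in CPM on log axes at passage 2 and passage 5 in the samples with Ngn3, with WT in blue, 6SA in orange, a symbol for each combination of factors and lines joining samples of a condition. Gal is lower at passage 5 in each of 5 conditions and Nmb in 4 of 5, Pomc shows no common direction, and the grey square is the 6SA passage 5 library with 3 factors that was left out.

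Some other measures moved with passage in the same samples. Neurog3 was at 7.87 to 38.8 CPM at passage 5 and 34.9 to 329 CPM at passage 2, and fell by 2.37 on the log2 scale (SE 0.43, adjusted p = 0.00185, edgeR), and Pdx1 fell by 1.81 (SE 0.32, adjusted p = 0.00124, edgeR). The sum of the 10 endocrine markers was 345 to 1338 CPM at passage 5 and 1712 to 12987 CPM at passage 2, while that of the 8 duct markers was 3206 to 17856 CPM and 1845 to 15355 CPM. The sum of 8 neuron markers was 42.3 to 269 CPM at passage 5, with a median of 77.3 CPM, and 137 to 879 CPM at passage 2, with a median of 570.1 CPM. Mafa had a log2 fold change of -1.31 (SE 1.00, adjusted p = 0.472, edgeR) and did not pass the threshold. The medians of the summed delta-cell markers were 290.5 CPM at passage 5 and 6472 CPM at passage 2, and those of the β-cell markers 10.8 CPM and 508 CPM. Those of the enteroendocrine markers were 13.8 CPM and 184 CPM, and those of the glial markers 3.50 CPM and 4.13 CPM. The ranges of these 4 sums overlapped. The part of these measures in the passage 5 levels of Gal and Nmb was not tested. No kept sample of 6SA cells with 3 factors was at passage 5, but the library of that condition with 408733 counts, left out for its depth, held Gal at 5281 CPM and Nmb at 27.9 CPM. When all libraries were kept, the change of Gal was -3.64 (SE 0.84, adjusted p = 0.0063, edgeR) and that of Nmb was -1.75 (SE 0.81, adjusted p = 0.185, edgeR), no longer past the threshold, while Npy passed it (adjusted p = 0.0327, edgeR). The call for Nmb was also lost without any of 8 single samples, at adjusted p of up to 0.119 (edgeR), and these were replicate 3 of every condition with Ngn3 except 6SA cells with Pdx1, replicate 1 of WT cells with Pdx1 or with 3 factors and of 6SA cells with Pdx1, and replicate 2 of WT cells with 3 factors.

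Receptors of these peptides, and with the opioid receptors the related receptor Oprl1, whose ligand nociceptin is not among the 8, were not used to pick the genes and were tested between conditions. Of 25 receptor genes, 24 were in the table and 12 passed the filter on low counts. When Ngn3 was added to Pdx1 and MafA, 4 of the 12 rose, against 17.8% of all genes called (9.42% higher and 8.4% lower). These were the galanin receptors Galr1 and Galr2, the nociceptin receptor Oprl1 and the PACAP receptor Adcyap1r1. The median log2 fold change of the 12 was 0.91, against 0.05 for all genes.

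Galr1 was at 0.798 to 58.0 CPM in the cells with 3 factors and at 0 in the 6 samples with Pdx1 and MafA, at least 68.2-fold higher when 3 counts in each of these samples are taken as the floor (adjusted p = 5.35e-05, edgeR). Galr2 was at 3.86 to 39.7 CPM against 0 to 0.689 CPM, a ratio of means of 123 and a log2 fold change of 6.68 (SE 1.3, adjusted p = 0.000657, edgeR). Oprl1 was at 0.798 to 46.9 CPM against 0, at least 59.4-fold higher (adjusted p = 0.000413, edgeR). Adcyap1r1 was at 0 to 5.75 CPM against 0, at least 4.46-fold higher (adjusted p = 0.0476, edgeR), and lost its call in 12 of 14 fits that left samples out. The Galr2 call was lost without replicate 2 (adjusted p = 0.0522, edgeR).

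Transcripts of both galanin and its receptors were thus found in the same sorted populations, while the proteins were not measured. Galr1 had counts in 14 of the 17 samples with Ngn3 and in 2 of 15 without, and Galr2 in 15 of 17 and 6 of 15. When Pdx1 was added to Ngn3 and MafA, Galr1 was the only 1 of the 24 receptor and processing genes called (2.72% of all genes). Its log2 fold change was 5.01 (SE 1.08, adjusted p = 0.0162, edgeR), at 0.798 to 58.0 CPM with 3 factors and 0 to 2.09 CPM without Pdx1. Its call was lost without replicate 2 (adjusted p = 0.174, edgeR). Oprl1 was at up to 44.2 CPM in cells with Ngn3 and MafA and up to 9.20 CPM with Ngn3 and Pdx1. Receptors of the other ligands varied in how often they were found in the 17 samples with Ngn3. Among the receptors of PACAP, Vipr2 had counts in 12 (up to 14.1 CPM) and Adcyap1r1 and Vipr1 in 9 each, and the melanocortin receptors Mc1r and Mc5r had counts in 8 each. Nmbr, the neuromedin B receptor, had counts in 5, Crhr2, a receptor of urocortin 3, in 4, and Npy6r, Mc3r and Brs3 were at 0 in all 32 samples. These receptors, except those named as called, are given outside the rule for named genes, after their values were seen.

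Neuropeptide precursors need cleavage and trimming, and 12 genes of this machinery were tested. When Ngn3 was added to Pdx1 and MafA, 7 rose and 1 fell, against 9.42% and 8.4% of all genes, and the median log2 fold change of the 12 was 0.91, against 0.05 for all genes. The prohormone convertase genes Pcsk2 and Pcsk1 rose by 10.54 (SE 1.01, adjusted p = 7.36e-08) and 8.07 (SE 0.79, adjusted p = 1e-07) on the log2 scale in edgeR, to 207 to 907 CPM and 149 to 279 CPM. Cpe, the carboxypeptidase that trims the cleaved ends, rose by 5.91 (SE 0.60, adjusted p = 1.42e-07, edgeR), and Scg5, the chaperone of the Pcsk2 product, by 8.21 (SE 0.95, adjusted p = 9.66e-07, edgeR). Pcsk1n, an inhibitor of the Pcsk1 product, was at 17.2 to 110 CPM against 0 to 0.145 CPM (adjusted p = 1.79e-06, edgeR).

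Smaller differences were found for 3 further processing genes. Ctsl rose by 0.89 (SE 0.29, adjusted p = 0.0296, edgeR), Pam, which amidates peptides such as galanin and neuromedin B and is named here as the last of the 8, by 0.92 (SE 0.32, adjusted p = 0.0468, edgeR), and Pcsk6 fell by 2.55 (SE 0.70, adjusted p = 0.0109, edgeR). The calls for Ctsl, Pam and Pcsk6 were lost in 7, 12 and 3 of 14 fits that left samples out, at adjusted p of up to 0.38, 0.213 and 0.266 (edgeR). When MafA was added to Ngn3 and Pdx1, Cpe was the only 1 of the 24 receptor and processing genes called (1.88% of all genes), with a rise of 2.37 (SE 0.52, adjusted p = 0.0132, edgeR), lost in 4 of 14 such fits (adjusted p up to 0.368, edgeR). Pcsk2, Pcsk1n, Pam, Pcsk6 and Ctsl share exon sequence with other annotated genes, which leaves their counts uncertain.

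**Figure D5:**
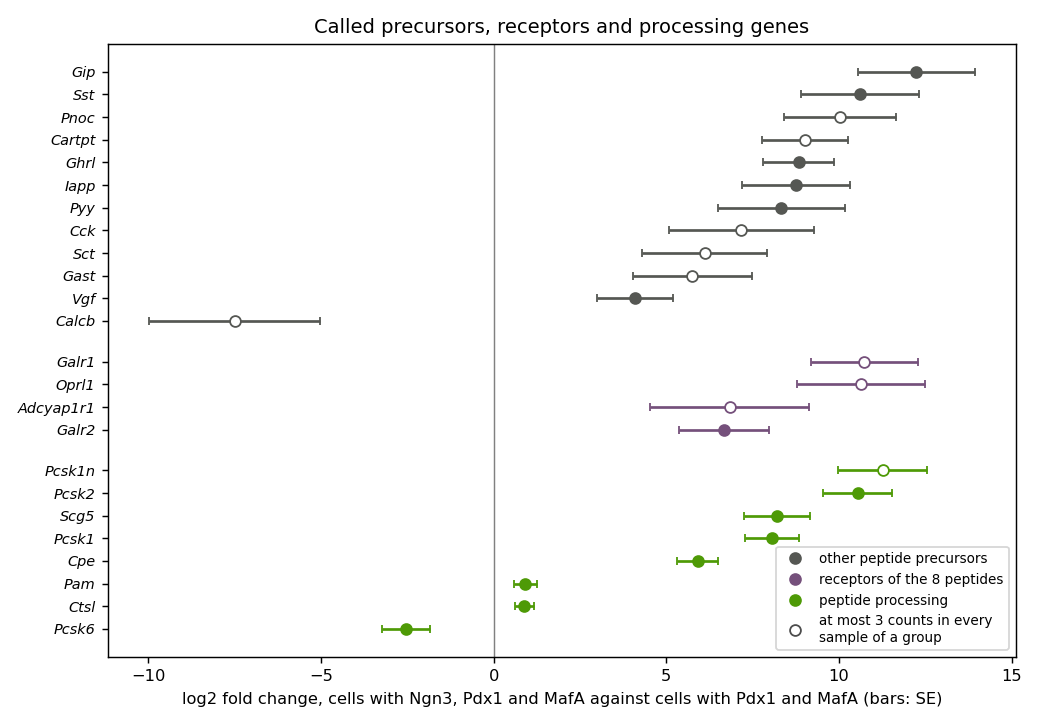
Fitted log2 fold changes with standard errors of the called peptide precursors, receptors and processing genes in cells with Ngn3, Pdx1 and MafA against cells with Pdx1 and MafA, with open symbols for genes that had at most 3 counts in every sample of a group, whose fitted values are no bound. All but Calcb and Pcsk6 lie to the right of 0.

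For comparison with the 8 genes, 47 further peptide precursor genes were listed, of which 46 were in the table and 29 passed the filter. When Ngn3 was added to Pdx1 and MafA, 11 of the 29 rose and 1 fell, against 9.42% and 8.4% of all genes, and the median log2 fold change of the list was 2.88, or 1.86 with genes at 0 set to their bound, against 0.05 for all genes. Ghrl (ghrelin) was at 10.8 to 3053 CPM with the 3 factors and 0.697 to 2.24 CPM without Ngn3, and Gip, a gut incretin, at 28.9 to 1219 CPM and 0 to 0.353 CPM. Sst (somatostatin) was at 1605 to 30704 CPM and 1.08 to 31.6 CPM, and Iapp (amylin) at 389 to 1650 CPM and 0 to 8.67 CPM. These 4 had log2 fold changes of 8.76 to 12.25, with adjusted p of at most 0.000255 (edgeR).

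Others of the list were at the low levels of Pomc and Nmb. Cartpt, the precursor of the CART peptides, was at 3.24 to 31.9 CPM against 0 to 0.0766 CPM (adjusted p = 2.21e-05, edgeR), and Pnoc, the nociceptin precursor, at 0.931 to 40.02 CPM against 0, at least 38.0-fold higher (adjusted p = 0.000292, edgeR). The other 5 that rose, outside the limit of 6 names set for a list, were Pyy, Vgf, Cck, Sct and Gast, whose calls were lost in 2, 2, 3, 7 and 11 of 14 fits that left samples out. Calcb, a close paralogue of Calca, was at 0 with 3 factors and at 0 to 8.71 CPM without Ngn3 (adjusted p = 0.0467, edgeR), and lost its call in 9 of 14 fits that left samples out. The number called was 7 in place of 12 without replicate 1 of the WT cells with 3 factors, and also without replicate 1 as a whole. Exons of Ghrl overlap those of genes on the opposite strand, which leaves its count uncertain.

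Fewer precursors were called when another factor was the one added. When Pdx1 was added to Ngn3 and MafA, 3 of 29 rose (1.17% of all genes) and 1 fell (1.56%). Gip rose by 8.28 (SE 1.39, adjusted p = 0.0018), Pnoc by 5.65 (SE 1.24, adjusted p = 0.0221) and Iapp by 5.63 (SE 1.36, adjusted p = 0.0243) in edgeR, while Gcg (glucagon) was at 0 with 3 factors and at 0 to 443 CPM without Pdx1 (adjusted p = 0.0225, edgeR). Leaving samples out ended the Pnoc and Iapp calls in 8 of 14 fits each and the Gcg call in 6, and the Gip call was lost without replicate 2 (adjusted p = 0.129, edgeR). When MafA was added to Ngn3 and Pdx1, Pnoc alone was called and rose (0.525% of all genes rose and 1.35% fell), at 0.931 to 40.02 CPM against 0 to 0.116 CPM (adjusted p = 0.00444, edgeR), and its call was lost without replicate 1 or replicate 2 (adjusted p up to 0.1, edgeR). These comparisons share the samples with 3 factors.

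Between 6SA and WT cells with Ngn3, edgeR called 0 of the 29 precursors and 0 of the 24 receptor and processing genes, with 3 and 1 at an unadjusted p under 0.05, and DESeq2 called 0 of both. Over all genes edgeR called 0 of 24004 (0%), with 1421 at an unadjusted p under 0.05, and DESeq2 called 26. At passage 5, 1 of the 29 precursors (Nmu) and 7 of the 24 receptor and processing genes (Galr1, Galr2, Vipr2, Pcsk2, Scg5, Pcsk1 and Cpe) were lower in edgeR and none was higher, against 4.22% of all genes lower and 5.97% called in either direction. DESeq2 called 5 and 12 of these lists. The median log2 fold changes of the lists were -1.30 and -1.51, or -1.0 and -0.95 with genes at 0 set to their bound, against -0.215 for all genes. The galanin receptors fell by 2.69 (Galr1, SE 0.80, adjusted p = 0.0463, edgeR) and 2.78 (Galr2, SE 0.78, adjusted p = 0.0332, edgeR), and these calls were lost in 9 and 5 of 17 fits that left a sample out, at adjusted p of up to 0.136 and 0.107 (edgeR). The Cpe call was lost in 9 of these 17 fits (adjusted p up to 0.196, edgeR) and in 4 of 9 other alternatives, and the Pcsk1 call in 3 of the 17 (adjusted p up to 0.106, edgeR).

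Across the 32 samples, the members were also compared with each other and with all tested genes by Pearson's r of log2(CPM + 1). These values describe samples that share conditions and passages. Gal correlated with Pomc at 0.80 and with Nmb at 0.79, and Pomc with Nmb at 0.71, whereas the values for Gal with Penk, Npy and Ucn3 were 0.51, 0.44 and 0.36. The genes with a pattern most like that of Gal were Tox2 (0.95), Gsdma (0.94) and Rprml (0.94). For Pomc they were Rprml, Selenom and Kazald1 (0.84 to 0.85), for Nmb they were Kcnh1, Rab3a and St8sia5 (0.88 to 0.90), and for Penk they were Ccer2, Mark1 and Ak7 (0.78 to 0.80), of which Ccer2 and Ak7 did not exceed 1.22 CPM.

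Markers of other cells that make neuropeptides were read in the same samples. Summed over 8 neuron markers the level was 269 to 847 CPM with 3 factors and 3.16 to 76.0 CPM without Ngn3. With 3 factors 7 of the 8 had counts, while the vesicular glutamate transporter gene Slc17a6 was at 0 in all 32 samples. Summed over 5 glial markers the level was 2.26 to 4.95 CPM and 0.857 to 6.80 CPM. With 3 factors 4 of the 5 had counts, while Sox10 was at 0 in all 32 samples. Summed over 6 acinar markers the level was 0 to 0.972 CPM and 0.617 to 12.7 CPM, and the acinar gene Ptf1a was at 0 in all 32 samples. The part of these markers in the neuropeptide levels was not tested.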

How the data were processed

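Sorted pools of 50 cells were sequenced by the authors, who aligned the reads to the mouse genome (GRCm38) with GSNAP and counted them per gene with HTSeq 0.5.3p3. The deposited values are raw counts per gene and library. Summary rows of reads assigned to no gene, 33.9% to 67.3% of a library, and 92 spike-ins stayed out. Libraries with 1000000 gene counts or fewer were left out, and pools of one culture were summed. Genes found in at least 5 libraries and with a variance of log2(CPM + 1) above 0.001 were tested (24004). Counts were scaled by TMM and fitted over all 12 conditions with the quasi-likelihood test of edgeR 4.0.16 in R 4.3.3, with a call at an adjusted p under 0.05 (Benjamini-Hochberg). The fit was tested on simulated data. DESeq2 1.42.0, other scalings, filters and library sets, and fits without each sample were the alternatives. A floor of 3 counts covers counting error only, and p-values measure the spread between these samples. The members and lists were chosen with earlier results of these data known. Named were all members, up to 6 called genes per list, contrast and direction, every receptor called, and for members found in at least 10 samples the 3 genes of highest correlation. Sequences are from RefSeq.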

Additional observations from a re-analysis of the deposited data

Results flagged for a closer look

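The 3 libraries left out for their low totals, all from cells with Ngn3, Pdx1 and MafA, held Gal far above the cells without Ngn3. As a share of plain library totals, Gal was at 17228.5 CPM in the second WT replicate (10779 of 625650 counts), at 14956.8 CPM in the second 6SA replicate (3613 of 241563 counts) and at 4633.83 CPM in the third 6SA replicate (1894 of 408733 counts). The highest of the 29 libraries without Ngn3 was at 4.87 CPM on this scale. The third 6SA replicate was at passage 5, where the kept WT sample with 3 factors was at 42.5 CPM after TMM scaling.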

How the results depend on the processing

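The Gal differences between conditions kept their direction in every alternative. When samples were left out, its log2 fold changes were 11.16 to 12.64 for Ngn3, 7.43 to 8.85 for MafA and 3.71 to 5.16 for Pdx1 as the added factor, and its highest pool was at 21695 CPM with plain library totals. The Npy change for Ngn3 was 11.17 at most when samples were left out and turned to -2.0 without replicate 1, the Ucn3 change for MafA, up to 4.59, to -0.63 and -0.09 without replicate 1 of the 6SA or the WT cells with 3 factors, and the Pomc passage change, as low as -0.91, to 0.16, 0.06 and 0.22 without WT Ngn3 with Pdx1 replicate 1, the same condition's replicate 3 or WT 3-factor replicate 3. The number of members called for passage was 1 with the first technical repeat only, 3 with DESeq2, and 1 to 2 when samples were left out, and DESeq2 called 5 precursors and 12 receptor and processing genes for passage in place of 1 and 7. Called precursors, when samples were left out, numbered 7 to 12 for Ngn3, 0 to 2 for MafA, 0 to 6 for Pdx1 and 0 to 0 for 6SA, and called receptor and processing genes 7 to 12, 0 to 4, 0 to 3 and 0 to 1. For precursors the count for MafA was 2 with all libraries, 2 with the newer edgeR fit and 6 with no gene filter, the count for Pdx1 was 2 with the first technical repeat and 7 with no filter, and that for 6SA was 4 with no filter. For receptor and processing genes the count for MafA was 2 with DESeq2, 4 with the newer fit, 4 with no filter and 2 with only the conditions compared, that for Pdx1 was 3, 3, 4 and 2, and that for 6SA was 1 with no filter. With plain library totals, 2903 genes were higher and 1389 lower for Ngn3, in place of 2262 and 2017, and the median of all genes moved from 0.05 to 0.30. The cause was not tested.

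Samples with the same replicate number did not always deviate together. Over 23 pairs the correlation was -0.387 to 0.769 and 18 were over 0.1, and 16 of 23 samples correlated best with their own number. With a replicate block the precursors called numbered 13, 2, 5 and 0 for Ngn3, MafA, Pdx1 and 6SA, and the receptor and processing genes 12, 3, 4 and 0. The Gal changes were 11.43, 7.85 and 3.39. For passage no block could be fitted, since passage 5 is replicate 3 in every condition.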
